A study of Homo sapiens with 9 samples.

Results

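CSF1, CSF2 and CSF3 are the 3 colony-stimulating factor genes among the 58037 genes measured here by RNA sequencing, and all 3 were found by their symbols and passed the filter on low values. They were selected because of their differences between treated and control libraries in these same data, so their levels and fold changes are given as a description, with no test. The established human lines MDA-MB-436, MDA-MB-231 and MDA-MB-453 were used by the study as models of triple-negative breast cancer and were grown in DMEM with 10% FBS. Each line gave 1 library of total RNA as a control, 1 after GSK343, a small-molecule inhibitor of the histone H3 lysine 27 methyltransferase EZH2, and 1 after shEZH2, a short hairpin RNA against EZH2. The sample labels state no treatment for the controls, while the column headers call them shControl, so whether they carried a control hairpin is not settled. With 1 library for each line and condition, the lines served as the replicates (n = 3 per group, 9 libraries). SDs are of RPKM over the lines. Intervals of fold changes use 1 residual spread per gene from all 9 libraries, which limma draws toward that of other genes. An interval therefore has the same width in each comparison of a gene, and does not follow how far that difference varies between lines.

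Colony-stimulating factors are secreted proteins that drive the growth, survival and activity of blood cells. CSF1 (M-CSF) acts on monocytes and macrophages through the receptor tyrosine kinase CSF1R. CSF2 (GM-CSF) acts on granulocytes and macrophages through a receptor made of CSF2RA and the shared chain CSF2RB, and CSF3 (G-CSF) acts on neutrophils and their precursors through CSF3R. Many tumour cells make these ligands and so act on the blood cells around them. CSF2 and CSF3 are induced by inflammatory signals such as IL-1 and TNF, through NF-kappaB, AP-1 and C/EBP transcription factors, and their short-lived mRNAs carry AU-rich elements that decay proteins bind.

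The AU-rich parts of the 3 transcripts are shown because they set the members apart at the sequence level. Each line below is the window of 30 bases with the most AUUUA pentamers, written as DNA from 5′ to 3′ with the pentamers in capitals, in the longest annotated 3′ untranslated region (GRCh38, GENCODE 29).
CSF1: ATTTAaatatctATTTAaaagataggaagc
CSF2: ATTTATTTATTTATTTATTTAagttcatat
CSF3: ATTTAtctctATTTAatATTTAtgtctatt
The CSF2 window held 5 overlapping pentamers, a clustering matched or exceeded by 0.207% of 18883 genes (39 genes). CSF3 held 3 in its window (2.97% of genes) and CSF1 held 2 (22.8%). Over the whole region, CSF2 had 8 pentamers in 318 bases, CSF3 had 7 in 854 bases and CSF1 had 4 in 2154 bases, and 68.1% of genes had at least 1. As many or more were found in 17.3%, 20.3% and 34.1% of genes, so the counts alone were not rare. Per base, 0.111%, 2.22% and 43.8% of genes were as dense or denser. These counts describe the sequences and do not measure decay.

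The promoter of CSF2 is shown because 2 elements described in this gene lie in it. Of the 3 members, CSF2 had an entry in the RefSeq promoter table, and the 250 bases before its start on the plus strand are chr5:132073539-132073788 (GRCh38.p14).
CSF2: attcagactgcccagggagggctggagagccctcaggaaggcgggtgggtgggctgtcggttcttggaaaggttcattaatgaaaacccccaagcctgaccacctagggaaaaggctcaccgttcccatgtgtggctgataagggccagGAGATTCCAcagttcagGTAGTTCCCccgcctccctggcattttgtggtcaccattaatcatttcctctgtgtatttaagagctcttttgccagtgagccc
The capitals mark the CK-1 element GAGATTCCA at -101 to -93 from the start, and the CSF2 kappaB element, which reads GGGAACTAC on the minus strand, at -84 to -76. On both strands of 35114 promoters searched, CK-1 occurred in 0.202% and the kappaB element in 0.225%. The general kappaB consensus (9.96% of promoters), the AP-1 motif TGANTCA (6.57%) and the TATA motif TATAAA (10.7%) had 0 matches in this window. The motifs were chosen with knowledge of this gene, and a match describes letters, not binding.

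Values are RPKM, reads scaled to gene length and library size, from libraries of 14757000 to 18283000 reads. EZH2 went against the labels. In the order MDA-MB-231, MDA-MB-436, MDA-MB-453 the controls held 27.4, 38.9 and 42.3 RPKM of EZH2. The GSK343-labelled libraries held 5.77, 7.53 and 7.99 RPKM, and the shEZH2-labelled ones 16.4, 37.4 and 16.2 RPKM. By limma, EZH2 was lower in the libraries labelled GSK343 (log2 fold change -2.19 ± 0.47, adjusted p = 0.000424, 3 of 3 lines). It did not pass in those labelled shEZH2 (-0.70 ± 0.47, adjusted p = 0.0597), although a hairpin acts on the transcript. Whether the 2 labels were exchanged was not tested, and groups are named below by their labels. Values of other genes below follow the same order of lines. The MDA-MB-453 label was also open to question. MDA-MB-453 is known as a luminal, apocrine-like line, but CDH1, which encodes E-cadherin, was at most 0.222 RPKM there, and ERBB2 was 6.25 to 8.58 RPKM against 8.93 to 11.1 in MDA-MB-231. Of 13 luminal markers 9 reached 1 RPKM in each of these libraries, KRT19 at 41.8 to 91.1 RPKM among them, but MDA-MB-231 held 8 or 9 at that level and KRT19 at 141 to 201 RPKM. Genes at 5 RPKM or more in either MDA-MB-231 or MDA-MB-436 and under 0.5 in the other numbered 305, 330 and 337 (control, GSK343, shEZH2), and all but 1, 0 and 1 of them lay between these lines in the library labelled MDA-MB-453. Whether these libraries come from a separate line was not tested. The use of the lines as independent replicates, and with it the SDs, intervals and p-values, rests on the labels. Results are therefore given with and without these libraries.

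CSF2 (ENSG00000164400.5, chromosome 5, 132073790 to 132076170, plus strand) showed the widest differences. Its RPKM was 17.6, 3.48 and 7.65 in the controls (mean 9.57 ± 7.25 SD, n = 3). It was 254, 16.8 and 104 under the GSK343 label (mean 125 ± 120 SD, n = 3) and 129, 19.8 and 104 under the shEZH2 label (mean 84.1 ± 57.1 SD, n = 3). Within each line both treated libraries were higher than the control. Across lines the groups overlapped under the GSK343 label only, where MDA-MB-436 at 16.8 was below the MDA-MB-231 control at 17.6. MDA-MB-231 was highest and MDA-MB-436 lowest in all 3 conditions, with MDA-MB-453 between them. In the control of MDA-MB-436 CSF2 rested on 46 reads, and in MDA-MB-231 under the GSK343 label on 2955. Among the 12965 genes tested, CSF2 moved from rank 2952 to rank 88 in MDA-MB-231 under the GSK343 label, counted from the most abundant gene.

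The CSF2 ratio to control within a line was 14.5 in MDA-MB-231 (95% exact binomial interval of counting error only, 12.7 to 16.6), 4.82 in MDA-MB-436 (3.50 to 6.78) and 13.6 in MDA-MB-453 (11.1 to 16.9) under the GSK343 label. Under the shEZH2 label it was 7.32 (6.38 to 8.42), 5.68 (4.14 to 7.94) and 13.6 (11.0 to 16.8). The ratio was lowest in MDA-MB-436 under both labels. With 1 library per line and condition, the spread within a line is unknown. Averaged over lines on the log2(RPKM + 1) scale, the log2 fold change was 3.12 ± 0.64 (95% interval) under GSK343 and 2.87 ± 0.64 under shEZH2, or 8.72-fold and 7.32-fold of RPKM + 1. Without the libraries labelled MDA-MB-453 these were 2.88 and 2.51. The SD of the within-line differences was 0.99 under GSK343 and 0.70 under shEZH2, so the shared interval understates the spread between lines. Both contrasts use the same 3 controls, so a low or high control moves both. In bulk RNA, more cells expressing a gene and more RNA per cell cannot be told apart.

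CSF3 (ENSG00000108342.12, chromosome 17, 40015361 to 40017813, plus strand) was higher in every treated library than in the control of its line. Its RPKM was 9.19, 54.0 and 18.6 in the controls (mean 27.3 ± 23.6 SD, n = 3), 72.3, 187 and 123 under the GSK343 label (mean 128 ± 57.6 SD, n = 3), and 38.5, 196 and 109 under the shEZH2 label (mean 114 ± 78.7 SD, n = 3). The order of the lines was the reverse of that for CSF2, with MDA-MB-436 highest and MDA-MB-231 lowest in all 3 conditions. The groups overlapped under the shEZH2 label only, where MDA-MB-231 at 38.5 was below the MDA-MB-436 control at 54.0. The ratios to control were 7.86, 3.47 and 6.63 under GSK343 and 4.19, 3.62 and 5.83 under shEZH2. The log2 fold changes were 2.43 ± 0.45 and 2.09 ± 0.45, and 2.31 and 1.90 without the libraries labelled MDA-MB-453. The SD of the within-line differences was 0.57 under GSK343 and 0.34 under shEZH2, so here too the interval understates the spread between lines. MDA-MB-436 had the smallest ratio for both CSF2 and CSF3 under both labels, although its control was the lowest of the lines for CSF2 and the highest for CSF3.

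CSF1 (ENSG00000184371.13, chromosome 1, 109910242 to 109930992, plus strand) started as an abundant transcript and differed least. Its RPKM was 54.1, 43.2 and 34.5 in the controls (mean 43.9 ± 9.80 SD, n = 3), 59.3, 70.7 and 80.5 under the GSK343 label (mean 70.2 ± 10.6 SD, n = 3), and 107, 90.8 and 81.2 under the shEZH2 label (mean 93.0 ± 12.9 SD, n = 3). Neither treated group overlapped the controls. The ratio to control under GSK343 ran from 1.10 in MDA-MB-231 (1.05 to 1.14 by counting) through 1.64 in MDA-MB-436 to 2.33 in MDA-MB-453. Under shEZH2 it was closer among lines, at 1.98, 2.10 and 2.35. The log2 fold changes were 0.68 ± 0.41 and 1.08 ± 0.41, and 0.41 and 1.01 without the libraries labelled MDA-MB-453. The SD of the within-line differences was 0.53 under GSK343 and 0.12 under shEZH2, so the shared interval understates the spread between lines under GSK343.

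**Figure D1:**
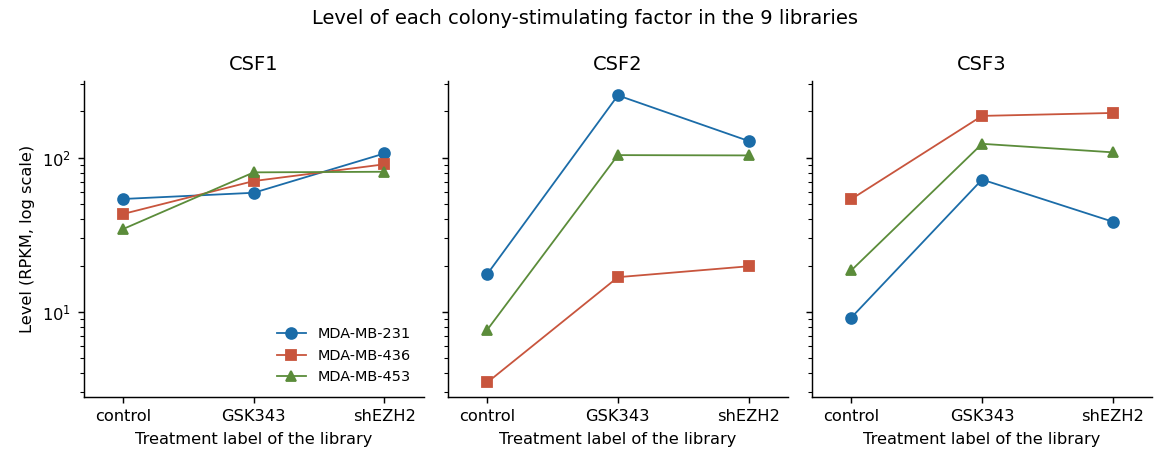
Level of CSF1, CSF2 and CSF3 in RPKM (log axis) by treatment label, with 1 point per library and a line joining the libraries of each cell line. CSF2 and CSF3 order the lines in opposite ways in all 3 conditions, and every treated library lies above the control of its line, for CSF1 in MDA-MB-231 by the least (59.3 against 54.1).

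The background of these contrasts is the share of all 12965 tested genes that passed an adjusted p of 0.05. Under the GSK343 label 6.25% were higher and 1.6% lower than in controls, and under the shEZH2 label 8.35% were higher and 2.28% lower. With libraries rescaled by median ratios the higher and lower calls under GSK343 were 586 and 258 in place of 810 and 208. Without the libraries labelled MDA-MB-453 they were 40 and 6 under GSK343, and 19 and 2 under shEZH2. The members were selected on these contrasts, so nothing is read from their place in them.

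**Figure D2:**
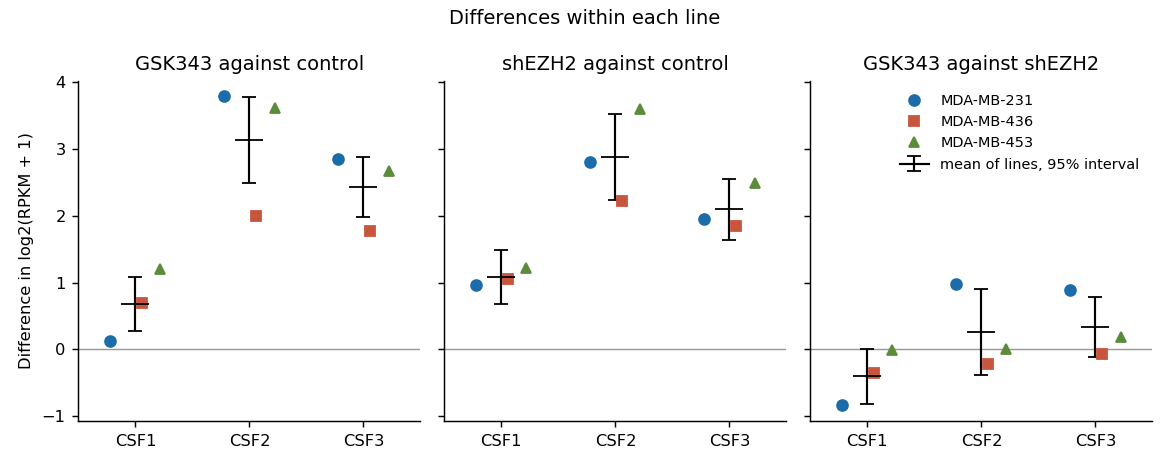
Difference in log2(RPKM + 1) within each line for the 3 comparisons. Symbols are lines, and the black bar and whiskers are the mean over lines with its 95% interval. Against control all 18 within-line differences are above 0, from 0.13 for CSF1 to 3.78 for CSF2, both in MDA-MB-231 under GSK343, while the intervals for GSK343 against shEZH2 all reach 0.

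The libraries labelled GSK343 and shEZH2 were also set against each other. The log2 difference, GSK343 minus shEZH2, was 0.25 ± 0.64 for CSF2 (interval -0.39 to 0.90), 0.34 ± 0.45 for CSF3 (-0.12 to 0.79) and -0.40 ± 0.41 for CSF1 (-0.81 to 0.0044). Each interval reached 0, which does not show that GSK343 and shEZH2 acted alike. CSF1 was lower under GSK343 in 3 of 3 lines, and CSF2 and CSF3 were higher in 2 of 3. In MDA-MB-231 alone CSF2 was 1.98 times (1.87 to 2.10 by counting) and CSF3 1.88 times as high under GSK343 as under shEZH2, while CSF1 was 0.556 times as high. In MDA-MB-436 the ratios were 0.850 for CSF2 (0.708 to 1.02), 0.957 for CSF3 and 0.779 for CSF1, and in MDA-MB-453 they were 1.01, 1.14 and 0.991. The counting intervals in MDA-MB-453 included 1 for CSF2 (0.930 to 1.086) and for CSF1 (0.959 to 1.025), so their direction there is not settled. Over all tested genes 0% passed in this comparison by limma (0 genes, with 295 at an unadjusted p under 0.05).

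Compared per length, the 3 ligands made up different mixtures in each line. In the MDA-MB-231 control CSF1 held 66.9% of their summed RPKM, CSF2 21.8% and CSF3 11.4%. Under GSK343 CSF2 held 65.9%, and under shEZH2 47.0%. In MDA-MB-436 CSF3 was the largest share in all 3 conditions, at 53.6%, 68.2% and 63.9%, and CSF2 stayed between 3.46% and 6.46%. In MDA-MB-453 CSF1 held 56.8% of the sum in the control and 26.1% and 27.7% in the treated libraries, where CSF3 was the largest share at 40.1% and 37.0% and CSF2 close to it at 33.8% and 35.3%. The sum itself was 80.9, 100.7 and 60.8 RPKM in the controls, 386, 275 and 308 under GSK343, and 274, 306 and 294 under shEZH2. The shares carry no replicate error, since each line had 1 library per condition.

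**Figure D3:**
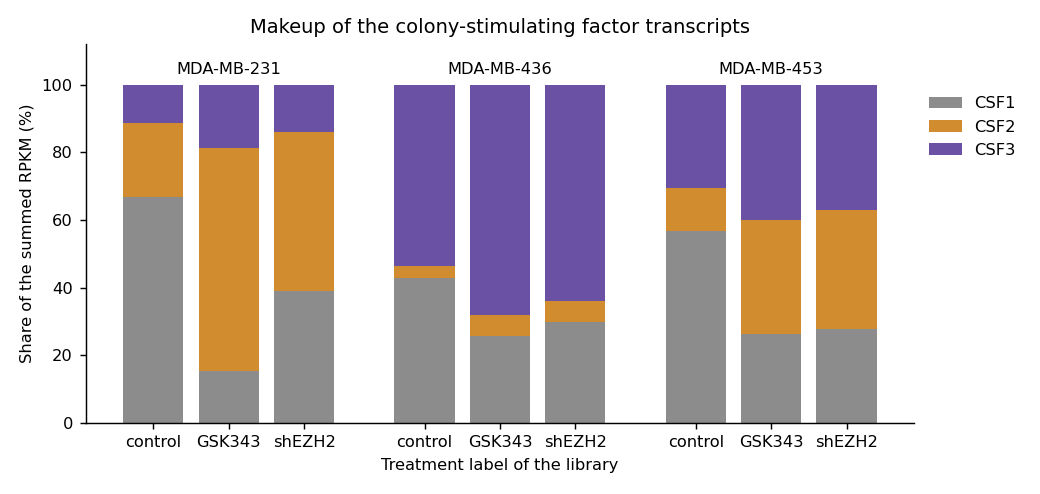
Share of CSF1, CSF2 and CSF3 in their summed RPKM (percent, stacked bars from 0 to 100) in each library, grouped by line. The share of CSF1 is smaller in both treated libraries of every line than in the control, and the share that grows most is CSF2 in MDA-MB-231 (21.8% to 65.9% under GSK343) but CSF3 in MDA-MB-436 (53.6% to 68.2%).

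The genes whose pattern was most like each member were found by Pearson's r of log2(RPKM + 1) over the 9 libraries after the mean of each line was subtracted. This is a description over libraries that share controls, and the highest values among all tested genes are high by selection. CSF2 and CSF3 were among each other's 5 most like genes (r = 0.996), while CSF1 was less like either (0.779 with CSF2 and 0.763 with CSF3). The genes most like CSF2 were EPS15L1 (0.999), an endocytosis gene, CIDECP (0.999), a pseudogene whose reads may belong to its parent gene, LRRC20 (0.996), CSF3 and VAT1 (0.995). Those most like CSF3 were CIDECP (0.998), NR3C2 (0.997), the mineralocorticoid receptor, EPS15L1 (0.997), CSF2 and RP11-166P13.3 (0.996). Those most like CSF1 were EPHX1 (0.994), an epoxide hydrolase, ODF3B (0.993), NYAP1 (0.991), C10orf10 (0.989) and VEGFA (0.988), the vascular growth factor. The sizes differed far more than the patterns: the log2 fold change of EPS15L1 was 0.58 under GSK343 and 0.52 under shEZH2, against 3.12 and 2.87 for CSF2.

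Transcripts of the receptors were scarce. CSF1R was 0.498, 0.0463 and 0.265 RPKM in the controls, 0.763, 0.129 and 0.418 under GSK343, and 0.786, 0.207 and 0.525 under shEZH2, below the filter. CSF2RA was listed at 0 in all 9 libraries, but it lies in the pseudoautosomal region shared by X and Y, where counting can discard reads, so its level is uncertain. CSF2RB was at most 0.0361 RPKM and CSF3R at most 0.0285 RPKM. IL34, which encodes the other ligand of CSF1R, was 0.267 to 2.001 RPKM and did not pass (log2 fold change 0.32 ± 0.35, adjusted p = 0.225, under GSK343 and 0.28 ± 0.35, adjusted p = 0.274, under shEZH2). Of the 17 related ligands and receptors 3 could be tested, and EPOR, the erythropoietin receptor, rose in both contrasts (0.73 ± 0.39, adjusted p = 0.0295, and 0.95 ± 0.39, adjusted p = 0.00922, higher in 3 of 3 lines in each). In 18 alternative fits EPOR lost its call 9 times under GSK343 and 6 times under shEZH2. KITLG, the ligand of KIT, did not pass (-0.01 and -0.22).

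Markers of blood cells, which carry the CSF receptors, were checked in the cultures. Of the blood cell markers, CD3E was at most 0.0425 RPKM and PTPRC, the leukocyte marker CD45, at most 0.203 RPKM. CD14 was 3.78 to 12.5 RPKM. LAPTM5 was 30.2, 0.237 and 14.6 RPKM in the controls, 48.7, 0.203 and 28.3 under GSK343, and 66.4, 0.309 and 30.8 under shEZH2. The summed level of the list, led by LAPTM5 and CD14, was 6.76 to 36.8 RPKM in the controls, 9.10 to 55.7 under GSK343 and 9.93 to 80.2 under shEZH2. ITGAM, a myeloid integrin, was 0.642 RPKM in the MDA-MB-436 control and 2.27 and 2.07 in its treated libraries. The mesenchymal markers also moved with the treatments, but not all in the same direction. Their summed level was 857 to 1249 RPKM in the controls, 579 to 895 under GSK343 and 589 to 942 under shEZH2, lower than control in every line. CAV1, the caveolae protein, was 222, 160 and 242 RPKM in the controls, 75.4, 69.2 and 70.6 under GSK343, and 84.6, 69.2 and 75.9 under shEZH2. VIM and AXL were also lower in every treated library than in the control of its line. FN1 was higher in each, from 33.3, 3.52 and 21.7 RPKM in the controls. It was 44.1, 5.69 and 37.6 under GSK343, and 66.4, 6.11 and 38.0 under shEZH2. CD44, MSN, ZEB1 and CDH2 went in different directions between libraries. The part of these markers in the CSF values was not tested.

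Genes around the ligands were taken from 5 lists of 105 genes, 84 of which were tested. By limma 15 of the 84 were higher and 2 lower under GSK343, and 14 higher and 2 lower under shEZH2, with adjusted p under 0.05. Over all genes 6.25% were higher and 1.6% lower under GSK343, and 8.35% and 2.28% under shEZH2. At an unadjusted p under 0.05, 21 of the 84 were higher and 7 lower under GSK343, and 24 and 5 under shEZH2. The shares of all genes at that p were 17.6% and 8.24%, and 19.2% and 9.36%. The median log2 fold change of the listed genes was 0.08 and 0.16, beside 0.06 and 0.05 over all genes tested. Without the libraries labelled MDA-MB-453, 0 of 82 passed in either contrast (limma; at an unadjusted p under 0.05, 17 higher and 6 lower under GSK343, and 15 higher and 7 lower under shEZH2), with 2 lines left. In the direct comparison 0 of 84 passed by limma, and 0 had an unadjusted p under 0.05. Without the control library of MDA-MB-453 alone, 4 were higher and 1 lower in each contrast. Without the treated library of MDA-MB-231 or of MDA-MB-453 the higher genes numbered 7 or 6 under GSK343 and 6 or 7 under shEZH2. None passed when the filter on low values or the term for the line was left out (limma; at an unadjusted p under 0.05, 9 to 29 higher).

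By limma, 7 of 23 tested transcription factors known to act on CSF promoters were higher under GSK343 and 6 under shEZH2, with 0 lower. Over all genes 6.25% and 8.35% were higher, and 1.6% and 2.28% lower. Without adjustment, 10 and 11 of the 23 were higher at p under 0.05, and 0 and 1 lower. The shares of all genes were then 17.6% and 19.2% higher, and 8.24% and 9.36% lower. With median-ratio scaling FOS, JUN, JUNB and JUND lost their call under GSK343, and JUNB, EGR1 and FOSL2 theirs under shEZH2. FOSB, an AP-1 subunit, was low throughout, at 0.414 to 0.633 RPKM in the controls, 1.54 to 2.17 under GSK343 and 1.23 to 1.64 under shEZH2, without overlap (0.90 ± 0.31, adjusted p = 0.00429, and 0.67 ± 0.31, adjusted p = 0.0150). The AP-1 subunits JUNB (0.77 ± 0.40 and 0.73 ± 0.40) and JUND (0.83 ± 0.43 in both) rose in both contrasts, as did CEBPB (0.82 ± 0.39 and 0.83 ± 0.39). In 18 alternative fits JUNB lost its call 9 times under each label, CEBPB 8 times and JUND 7 times. FOSB did so 3 times under GSK343 and 6 times under shEZH2, and EGR1 6 and 10 times. CEBPB was at 38.0, 160 and 56.7 RPKM in the controls, 85.7, 206 and 111 under GSK343, and 83.6, 199 and 119 under shEZH2. EGR1, an immediate-early zinc finger factor, rose from 11.6, 4.42 and 6.53 RPKM to 22.2, 54.5 and 28.2 under GSK343 (2.06 ± 0.97, adjusted p = 0.0191). Under shEZH2 it was 9.57, 43.9 and 30.7 RPKM and higher in 2 of 3 lines (1.62 ± 0.97, adjusted p = 0.0388), and without MDA-MB-436 the value was 0.91 (adjusted p = 0.0849). FOS and JUN passed under GSK343 and FOSL2 under shEZH2, and no difference between the contrasts was detected in the direct comparison.

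Proteins that bind AU-rich or other mRNA elements moved in both directions, with 2 of 15 higher and 2 lower by limma in each contrast. At an unadjusted p under 0.05, 3 were higher and 4 lower under GSK343, and 2 and 4 under shEZH2. Over all genes 6.25% and 8.35% were higher and 1.6% and 2.28% lower with adjustment. Without it 17.6% and 19.2% were higher, and 8.24% and 9.36% lower. HNRNPD, which encodes the AU-rich element binding protein AUF1, was 84.1, 38.7 and 65.5 RPKM in the controls, 47.2, 22.1 and 31.8 under GSK343 and 40.0, 20.7 and 34.2 under shEZH2, lower in 3 of 3 lines each time. It fell by 0.87 on the log2 scale under GSK343 (adjusted p = 0.00389) and by 0.95 under shEZH2 (adjusted p = 0.00247). NCL, nucleolin, fell by 0.58 (adjusted p = 0.0343) and by 0.67 (adjusted p = 0.0161). ZFP36, tristetraprolin, which promotes decay of AU-rich mRNAs, rose by 0.81 ± 0.39 and 0.79 ± 0.39 (adjusted p = 0.0212 and 0.0186). ZC3H12A, the ribonuclease regnase-1, rose by 1.14 ± 0.48 and 1.19 ± 0.48 (adjusted p = 0.0124 and 0.00927). Of 18 alternative fits, NCL lost its call in 11 under GSK343 and 7 under shEZH2. ZC3H12A did so in 7 and 6, ZFP36 in 6 and 6, and HNRNPD in 3 and 3. ELAVL1, the stabilizing protein HuR, did not pass (-0.38 and -0.39). No half-life was measured.

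Inducers of CSF genes and their receptors had 3 of 21 higher and 0 lower by limma in each contrast (at an unadjusted p under 0.05, 5 and 6 higher and 0 lower). Over all genes 6.25% and 8.35% were higher with adjustment, and 17.6% and 19.2% at that unadjusted p. The shares lower were 1.6% and 2.28% with adjustment, and 8.24% and 9.36% without it. These counts of inducers and receptors are not read as apart from the rest. TNFRSF1B, which encodes TNF receptor 2, was 5.07, 0.452 and 1.82 RPKM in the controls, 10.4, 2.998 and 7.80 under GSK343, and 12.3, 3.39 and 7.86 under shEZH2 (1.34 ± 0.35, adjusted p = 0.00113, and 1.46 ± 0.35, adjusted p = 0.000747). MAP3K8, a kinase between TNF or Toll-like receptors and ERK, rose by 0.79 ± 0.30 (adjusted p = 0.00642) and 0.83 ± 0.30 (adjusted p = 0.00509). IL1B was 5.15, 131 and 63.9 RPKM in the controls, 75.1, 250 and 130 under GSK343, and 59.6, 245 and 151 under shEZH2. Like CSF3 it was highest in MDA-MB-436 in every condition (1.86 ± 0.91, adjusted p = 0.0222, and 1.81 ± 0.91, adjusted p = 0.0198). MDA-MB-231 had the widest difference. Without that line IL1B was at 0.97 and 1.06 and still passed, and without its treated library it was at 1.34 (adjusted p = 0.0961) and 1.504 (adjusted p = 0.108). TNF itself was below the filter, and TLR4, MYD88 and IL17RC did not pass in the contrasts where they had the smallest p.

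Signalling genes below the receptors had 2 of 22 higher by limma in each contrast, GAB2 and PIM1, and 0 lower. At an unadjusted p under 0.05, 2 were higher and 3 lower under GSK343, and 4 and 0 under shEZH2. Over all genes 6.25% and 8.35% were higher with adjustment, and 17.6% and 19.2% without it. Those lower without it were 8.24% and 9.36%. The counts of signalling genes are therefore not read as apart from the rest. GAB2, an adaptor of cytokine receptors, was 3.66, 0.862 and 2.39 RPKM in the controls, 6.05, 3.93 and 5.93 under GSK343, and 6.61, 3.24 and 5.89 under shEZH2 (1.01 ± 0.35, adjusted p = 0.00440, and 0.97 ± 0.35, adjusted p = 0.00570). PIM1, a kinase induced by STAT5, rose by 0.72 ± 0.36 (adjusted p = 0.0247) and 0.93 ± 0.36 (adjusted p = 0.00822). The feedback genes SOCS2 and SOCS3 had log2 fold changes of -0.39 and -0.40 under GSK343 and did not pass, nor did LYN (-0.32), a kinase of the SRC family. Under shEZH2, TYK2 (0.53) and PIM3 (0.50) did not pass.

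**Figure D4:**
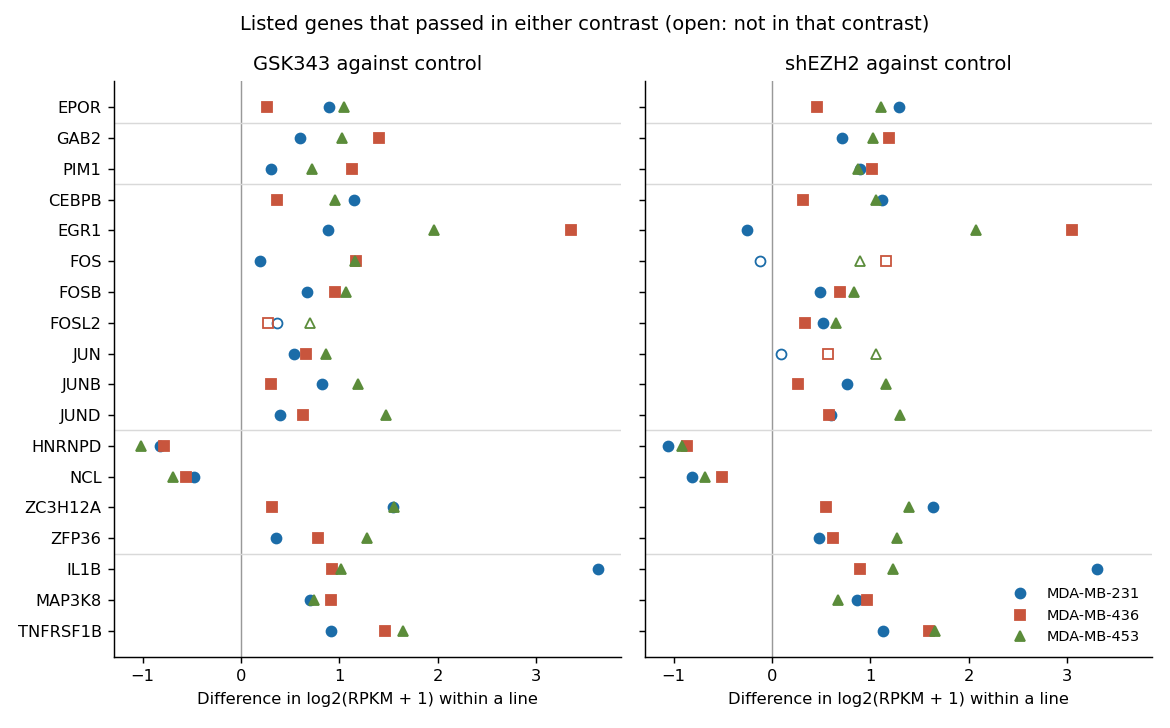
Difference in log2(RPKM + 1) from control within each line for the 18 listed genes that passed in either contrast, grouped from top to bottom as ligands and receptors, signalling, transcription factors, mRNA element binders and inducers. Symbols are lines, and open symbols mark a gene that did not pass in that contrast. HNRNPD and NCL lie below 0 in all lines, and EGR1 and IL1B have the widest spread between lines.

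Neighbours on the chromosome were examined within 200 kb of each member, where 52 genes are annotated (GENCODE 29), 50 are in the table and 15 were tested. By limma 4 were higher in each contrast and 0 lower (at an unadjusted p under 0.05, 4 higher and 1 lower under GSK343, and 5 higher and 0 lower under shEZH2). Over all genes 6.25% and 8.35% were higher with adjustment, and 17.6% and 19.2% without it, so the neighbours, 15 genes in all, are not read as standing apart. Around CSF3, MED24, a Mediator subunit 1.28 kb away, had log2 fold changes of 0.05 and 0.11, and PSMD3, a proteasome subunit 17.4 kb away, 0.05 and 0.01. NR1D1, the nuclear receptor REV-ERB alpha 75.0 kb away, was 11.99, 10.3 and 8.40 RPKM in the controls, 17.9, 32.8 and 27.9 under GSK343, and 18.9, 30.5 and 23.8 under shEZH2 (1.25 ± 0.43, adjusted p = 0.00437, and 1.17 ± 0.43, adjusted p = 0.00647). ORMDL3, a regulator of sphingolipid synthesis 87.8 kb away on the other side, also rose (0.61 ± 0.31, adjusted p = 0.0260, and 0.64 ± 0.31, adjusted p = 0.0180). The closest annotated gene on that side, AC090844.3 at 0.656 kb, was below the filter.

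Around CSF2 the cytokine gene IL3, 10.6 kb away, was at most 0.0535 RPKM, and RF00285 on the other side was listed at 0. The 2 tested neighbours were P4HA2, a collagen prolyl hydroxylase subunit 116 kb away, and PDLIM4, which encodes a PDZ and LIM domain protein, 182 kb away. P4HA2 rose by 0.57 ± 0.32 (adjusted p = 0.0343) and 0.77 ± 0.32 (adjusted p = 0.00963), and PDLIM4 by 0.81 ± 0.43 in both (adjusted p = 0.0315 and 0.0245). PDLIM4 lies inside P4HA2 on the opposite strand. NR1D1 overlaps THRA at their ends only, also on the opposite strand. Without a stated strand setting, reads from the shared parts of these pairs may be mixed. Around CSF1, 4 neighbours were tested and 0 passed in either contrast (limma; at an unadjusted p under 0.05, 0 higher and 1 lower, GSTM3, under GSK343 and 0 under shEZH2). The nearest was AHCYL1, 53.7 kb away, with -0.17 and 0.13, and AL450468.2, 12.4 kb away on the other side, was below the filter. Without the libraries labelled MDA-MB-453, 0 of the 4 neighbours passed (limma), with unadjusted p from 0.00300 to 0.0277 under GSK343 and 0.00178 to 0.0292 under shEZH2. Leaving out 1 library also lowered the count. Under GSK343 it was 1 without the MDA-MB-231 control, 0 without the MDA-MB-453 control, and 1, 2 and 1 without the treated library of each line in order. Under shEZH2 it was 2 and 1 without those controls, and 1 and 2 without the treated library of MDA-MB-231 or of MDA-MB-453.

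**Figure D5:**
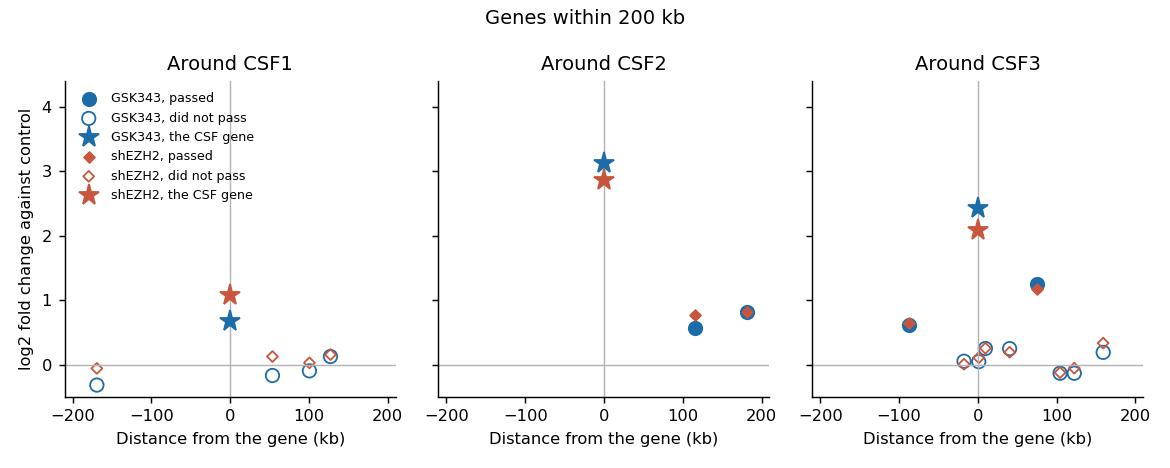
Log2 fold change of RPKM + 1 against control for each tested gene within 200 kb of CSF1, CSF2 and CSF3, by distance from the member in kb (negative is toward lower coordinates). Circles are the GSK343 label, diamonds the shEZH2 label, filled where the gene passed, and stars are the member itself. The filled symbols are P4HA2 and PDLIM4 near CSF2 and ORMDL3 and NR1D1 near CSF3, and the 4 tested neighbours of CSF1 are open.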

How the data were processed

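The RPKM analysed are the authors' deposited values for 58037 genes in 9 columns, with 0 columns unused. Alignment and counting tools are named in the submitters' processing notes as STAR and HTSeq, with the build GRCh38. Their versions, the annotation and the strand setting were not stated in those notes or the labels. Multiplied by exon length in GENCODE 29, which holds 92.5% of the gene identifiers, low values were whole multiples of 1 read (100% within 0.05 of a read), which gave the read totals.

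The members, gene lists, motifs and alternatives were chosen with earlier results of these data known. Genes with at least 1 RPKM in at least 3 of 9 libraries (12965) were fitted as log2(RPKM + 1) with limma 3.58.1 (R 4.3.3), with treatment and line as terms, a mean-variance trend and 4 residual degrees of freedom. P-values are two-sided and Benjamini-Hochberg adjusted across the 12965 genes, and the threshold was 0.05. Errors of fold changes are 95% intervals, and fold changes are those of RPKM + 1, which understates the change of low genes.

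Columns were assigned by their headers. The samples were paired by line. After subtracting group means, libraries of different groups correlated across genes at 0.358 to 0.953 within a line and at -0.914 to 0.0903 between lines. That subtraction makes the values of a group sum to 0 for each gene, so the negative values between lines follow in part from it. Nothing in the labels says that cultures were replicated, so p-values measure the spread between these libraries.

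Named genes are the members, EZH2, the CSF receptors and IL34, up to 5 tested genes per list and contrast with the smallest p, tested neighbours within 200 kb that passed and the nearest gene on each side, and the 5 genes most like each member. FOS, JUN, FOSL2, GSTM3 and THRA were named after their values were seen. The alternatives were pseudocounts of 0.1 and 0.5, no filter, median-ratio scaling, no trend, no replicate block, and leaving out each library or line. For the neighbours and EZH2 they were added after the data were seen.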

Additional observations from a re-analysis of the deposited data

Results flagged for a closer look

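Both entries concern the lines, whose differences between the labels had opposite signs, which was not tested. The log2 difference in RPKM + 1 of CSF2, GSK343 minus shEZH2, was 0.98 in MDA-MB-231 and -0.22 in MDA-MB-436. That of CSF3 was 0.89 in MDA-MB-231 and -0.063 in MDA-MB-436. Each line had 1 library per label.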

How the results depend on the processing

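Over all alternatives the log2 fold changes of the members against control kept their direction, from 0.41 to 0.95 (GSK343) and 0.91 to 1.24 (shEZH2) for CSF1, 2.78 to 3.69 and 2.51 to 3.32 for CSF2, and 2.19 to 2.76 and 1.90 to 2.32 for CSF3. The direct difference of CSF2, GSK343 minus shEZH2, reversed to -0.09 without the MDA-MB-231 library labelled GSK343 and to -0.11 without that line, and ranged from -0.11 to 0.66 when libraries or lines were left out. Those of CSF1 (-0.63 to -0.16) and CSF3 (0.06 to 0.60) did not reverse.

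Without a filter on low values 0 listed genes passed in either direction or contrast (limma; 24 higher and 5 lower at an unadjusted p under 0.05 under GSK343, 29 and 6 under shEZH2), and 0 neighbours. With no replicate block, that is without pairing by line, 0 listed genes (9 higher and 1 lower unadjusted, 9 and 2) and 0 neighbours passed. Over all genes 13 and 1 passed without the filter and 2 and 0 without the block under GSK343, 15 and 0 and 2 and 0 under shEZH2. Median-ratio scaling left 10 listed genes higher under GSK343 and 11 under shEZH2, and 2 and 4 neighbours. Leaving out libraries or lines gave 0 to 15 listed genes higher and 0 to 2 lower under GSK343, 0 to 18 and 0 to 2 under shEZH2, and 0 to 4 and 0 to 5 neighbours higher. The causes were not tested.

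TNFRSF1B, GAB2, MAP3K8 and HNRNPD passed in both contrasts, FOSB under GSK343 and PIM1 under shEZH2 in each of the 9 fits that left out 1 library. Each lost its call without the 3 libraries labelled MDA-MB-453 (adjusted p 0.0556 to 0.108), with 2 lines left and log2 fold changes of about the same size (under GSK343 1.19 for TNFRSF1B, 1.002 for GAB2, 0.81 for MAP3K8 and -0.80 for HNRNPD). NR1D1 did so without the MDA-MB-453 control alone (adjusted p 0.0538 and 0.0591). EZH2 passed under shEZH2 without the MDA-MB-436 library labelled shEZH2 (-1.03), without that line (-1.02), and without its library labelled GSK343 (-0.70). CSF2 in the MDA-MB-436 control rested on 46 reads.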
